A study of Mus musculus with 8 samples.

Results

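Fut2, Fut4, Fut8, B4galnt2, B3galt5, St3gal4, St6gal1, C1galt1 and Gcnt3 are 9 glycosyltransferase genes of the gut lining, out of 25239 genes in the count table. They were chosen by name from earlier results of the same comparison, in which Fut2 and B3galt5 already stood out, so their differences between genotypes are described here and not tested. Bulk RNA-seq was performed on intestinal epithelial cells (IECs) that were sorted as EpCAM+ CD45- CD31- Ter119- from crypts of the proximal small intestine. The 4 CD1d-KO mice lacked both CD1d genes (genotype CD1d1/2 KO) and the 4 wild-type (WT) mice were of the C57BL/6Jax strain, and neither group was treated. Per the study's methods the mice were 7 to 10 weeks old and of both sexes, and the genotypes were matched for age and sex. CD1d is the lipid-presenting molecule that natural killer T (NKT) cells depend on, and mice without it have no NKT cells in any tissue, so loss of CD1d in the epithelium and loss of NKT cells cannot be told apart in these samples. The study states that its mice were no littermates, so genotype and any difference in gut microbes between litters or cages cannot be told apart either.

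Mucins and membrane proteins of the gut surface carry sugar chains that are built stepwise by glycosyltransferases, and the last sugars added, such as fucose and sialic acid, are the ones that microbes, lectins and antibodies meet. O-linked chains start from a sugar on serine or threonine and are then branched, while N-linked chains are trimmed and branched in the Golgi. C1galt1 makes the core 1 O-glycan and Gcnt3 adds the core 2 and core 4 branches of mucins. B3galt5 makes type 1 chains, Fut2 caps chains with alpha-1,2-linked fucose to give the H antigen, Fut4 adds alpha-1,3-linked fucose as in Lewis x, and Fut8 adds the core fucose of N-glycans. B4galnt2 makes the Sda antigen, St3gal4 adds alpha-2,3-linked sialic acid and St6gal1 adds alpha-2,6-linked sialic acid to N-glycans. In mice, Fut2 in small intestinal epithelium is known to respond to microbes and to interleukin-22 (IL-22).

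Total counts per sample ranged from 23610266 to 31629435. The targeted gene Cd1d1 was counted 8, 3, 5 and 0 times in CD1d-KO 1 to 4 and 81, 70, 94 and 50 times in WT 1 to 4. Epithelial marker genes were detected in every sample, with summed levels of 5600 to 5980 FPKM in CD1d-KO and 5510 to 6060 FPKM in WT. Y-linked transcripts were counted in CD1d-KO 1 and 2, with 6235 and 7293 summed raw counts, against 0 or 1 in each of the other samples. Sex was thus not balanced over the genotypes in these samples, unlike the matching that the methods state. Markers of stomach glands and of leukocytes also moved with genotype. The 15 stomach markers with counts summed to 27.7 to 59.2 FPKM in CD1d-KO and to 89.1 to 550 FPKM in WT, 13 of 15 had a higher mean in WT, and no stomach marker was at 0 in every CD1d-KO sample. The 16 leukocyte markers summed to 7.45 to 9.4 FPKM in CD1d-KO and to 9.74 to 36.0 FPKM in WT, and 14 of 16 had a higher mean in WT. In sorted bulk samples, fewer cells of a type and less RNA per cell cannot be told apart.

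Of the 9 genes, Fut2 and B3galt5 were lower in every CD1d-KO sample than in any WT sample, and the other 7 overlapped between genotypes. A gene was called where the DESeq2 p-value, adjusted by the Benjamini-Hochberg method over the 15446 genes tested, was under 0.05. Called were 2 of the 9 genes, both lower, and 0 were called higher. Over all tested genes, 4.03% were called, 1.65% higher and 2.38% lower, and 9.61% had genotypes that did not overlap. Since the genes were picked from this contrast, nothing is read from these shares. All 9 genes passed the filter on low counts, and their median log2 fold change, CD1d-KO over WT, was 0.00.

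**Figure D1:**
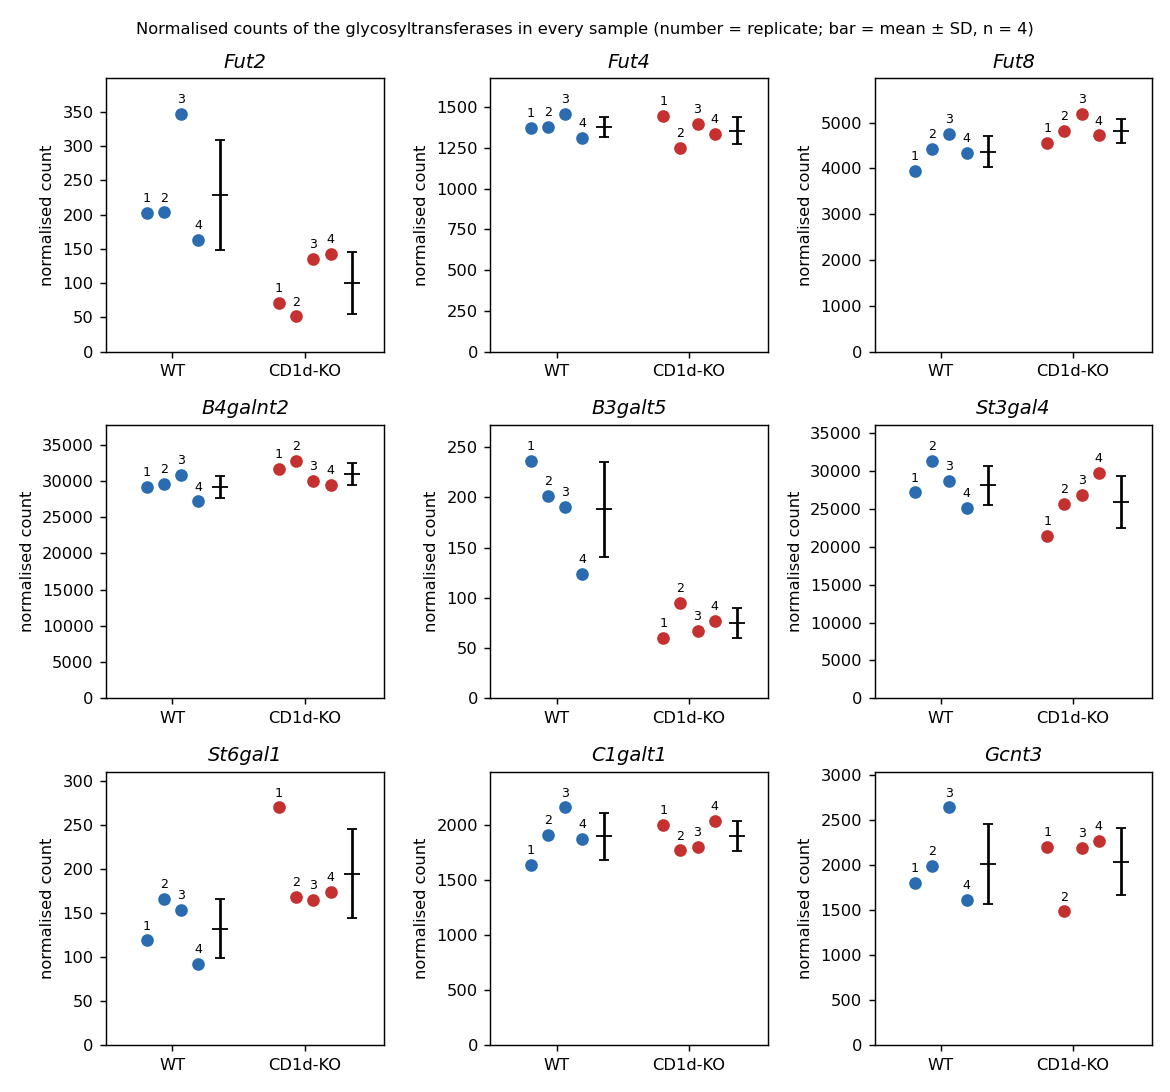
Normalised counts (y axis, linear, from 0) of each of the 9 glycosyltransferases in the 4 WT (blue) and 4 CD1d-KO (red) samples, with the replicate number above each point and the mean ± SD (n = 4) as a black bar. Fut2 and B3galt5 have all red points below all blue points, with highest CD1d-KO counts of 143 and 95.2 against lowest WT counts of 163 and 123, and the other panels overlap.

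B3galt5, the galactosyltransferase of type 1 chains, lies on the plus strand at chr16:96235801-96319859 (mm10). Its normalised counts were 59.9, 95.2, 67.4 and 76.8 in CD1d-KO 1 to 4 and 237, 201, 191 and 123 in WT 1 to 4. The highest CD1d-KO sample was below the lowest WT sample, WT 4. The mean was 74.8 ± 15.3 in CD1d-KO and 188 ± 47.3 in WT (SD, n = 4), so the WT mean was 2.51 times the CD1d-KO mean, and the log2 fold change was -1.33 ± 0.22 (SE). Among CD1d-KO samples, the mean over CD1d-KO 1 and 2, which carried Y-linked transcripts, was 77.6 and that over CD1d-KO 3 and 4 was 72.1. The lowest raw count was 67, at which counting alone gives an error of 12.2%. With the mean level of the stomach markers as a covariate the log2 fold change of B3galt5 was -1.54 ± 0.43 (SE). The gene was then no longer called (DESeq2 adjusted p = 0.0547). That stomach score was -2.69, -2.55, -2.45 and 0.293 in CD1d-KO 1 to 4 and 0.792, 1.05, 3.24 and 2.32 in WT 1 to 4. It did not overlap between genotypes, so each fit with it can hardly part genotype from stomach transcripts. Without WT 3 and WT 4, the libraries with the most stomach transcripts, the log2 fold change was -1.55 and B3galt5 remained called. Leukocyte markers summed to 36.05, 16.61, 12.34 and 9.737 FPKM in WT 1 to 4, the same order as B3galt5. In CD1d-KO 1 to 4 they summed to 9.156, 7.448, 7.955 and 9.396 FPKM. There CD1d-KO 2 was lowest for these markers and highest for B3galt5. The part of leukocyte transcripts in the B3galt5 difference was not tested.

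The 250 bases before the annotated start of B3galt5 (RefSeq, GRCm38.p6, chr16:96235551-96235800, plus strand) are shown because they hold the one match among the windows of the 9 genes to the STAT motif TTCNNNGAA, whose letters are in capitals.

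B3galt5: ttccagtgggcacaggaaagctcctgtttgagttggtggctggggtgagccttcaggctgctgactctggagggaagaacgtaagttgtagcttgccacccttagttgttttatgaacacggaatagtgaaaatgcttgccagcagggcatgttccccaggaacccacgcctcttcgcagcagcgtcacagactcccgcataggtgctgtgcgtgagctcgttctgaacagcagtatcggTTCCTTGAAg

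The match begins 10 bases before the start. Windows of 250 bases before to 50 bases after a start were given for 7 of the 9 genes, 14 windows in all. Fut2 and Gcnt3 had no window, so their promoters were not searched. The given windows were searched on both strands for the STAT motif, for the interferon motif GAAANNGAA and for the CDX motif TTTATNG. B3galt5 has 3 annotated starts and the other 2 windows held no match. A CDX match lay in 1 of the 4 Fut8 windows, and no other window of the 7 genes held any of the 3 motifs. Among all 32851 windows, 8.3% held the STAT motif, 8.56% the interferon motif and 10.9% the CDX motif. A match describes the letters only and says nothing of binding.

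Fut2, the fucosyltransferase of the H antigen, lies on the minus strand at chr7:45648591-45666394 (mm10). Its normalised counts were 71.5, 51.4, 135 and 143 in CD1d-KO 1 to 4 and 202, 203, 347 and 163 in WT 1 to 4. All CD1d-KO samples were below all WT samples, but CD1d-KO 4 and WT 4 lay close to each other and WT 3 was the highest. The mean was 100.2 ± 45.6 in CD1d-KO and 229 ± 81.1 in WT (SD, n = 4), a WT mean 2.28 times the CD1d-KO mean, with a log2 fold change of -1.19 ± 0.31 (SE). The lowest raw count was 54, which gives a counting error of 13.6%, whereas the SD was 45.5% of the mean in CD1d-KO and 35.4% in WT.

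The low Fut2 values of CD1d-KO 1 and 2 coincided with the Y-linked transcripts: their mean was 61.5, against 139 in CD1d-KO 3 and 4. Without those 2 samples the log2 fold change was -0.72 and Fut2 was not called (DESeq2 adjusted p = 0.148). Fut2 was also highest in WT 3, the sample with the highest stomach marker sum (550 FPKM, against 255 in WT 4 and 92.6 and 89.1 in WT 1 and 2). The fit with the stomach marker level as a covariate can hardly part that level from genotype. In that fit the log2 fold change of Fut2 was -0.21 ± 0.48 (SE, DESeq2 adjusted p = 0.957). Without WT 3 and WT 4 it was -1.02 (adjusted p = 0.0882), and without WT 3 alone it was -0.92 (adjusted p = 0.0671), both with DESeq2. The call was also lost without CD1d-KO 1 or without WT 1, at log2 fold changes of -1.06 and -1.25, and edgeR gave -1.20 with an adjusted p of 0.0602. Fut2 kept its call in 8 of 15 alternative fits, whereas B3galt5 kept its call in 14 of 15.

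**Figure D2:**
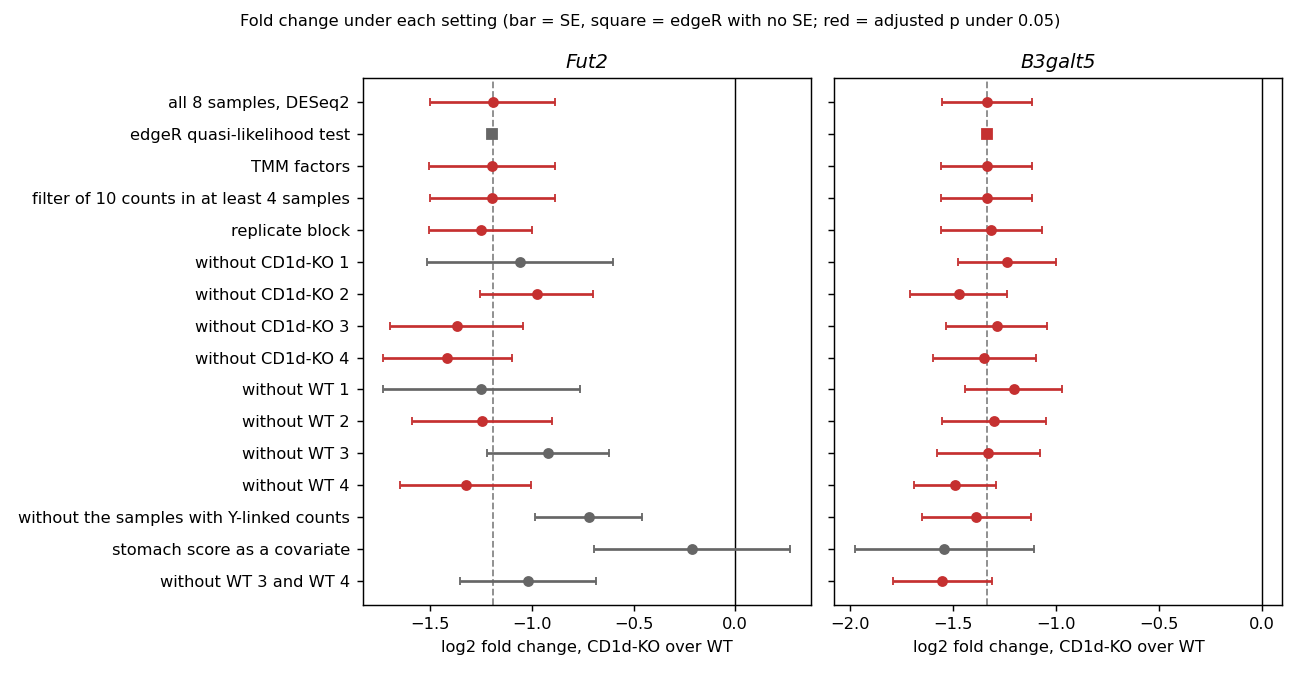
Log2 fold change of Fut2 (left) and B3galt5 (right), CD1d-KO over WT (x axis), under each alternative fit (rows), with bars for the SE, a square for edgeR, which gives no SE, red for an adjusted p under 0.05 and a dashed line at the value from all 8 samples. Every value is below 0, from -1.42 to -0.21 for Fut2 and from -1.55 to -1.21 for B3galt5, and Fut2 comes nearest to 0 with the stomach score as a covariate.

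St6gal1, the sialyltransferase of N-glycans, lies on the plus strand at chr16:23224740-23360350 (mm10). Its normalised counts were 270, 169, 165 and 174 in CD1d-KO 1 to 4 and 119, 166, 153 and 91.7 in WT 1 to 4. CD1d-KO 1 stood above all other samples, and WT 2 was at the level of CD1d-KO 3. The mean was 194 ± 50.5 in CD1d-KO and 132 ± 33.5 in WT (SD, n = 4), and the log2 fold change was 0.55 ± 0.22 (SE), which was not called. Without CD1d-KO 1 the log2 fold change was 0.35. Of 8 Paneth cell markers, a list also chosen with earlier results known, 3 were called higher in CD1d-KO, against 1.65% of all tested genes. The markers summed to 2751, 1645, 2797 and 3695 FPKM in CD1d-KO 1 to 4 and to 1520 to 1920 FPKM in WT. Their part in the St6gal1 difference was not tested.

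The other 2 fucosyltransferases did not show the pattern of Fut2. Fut4 (chr9:14748459-14752122, minus strand) had normalised counts of 1446, 1249, 1398 and 1335 in CD1d-KO 1 to 4 and of 1372, 1378, 1458 and 1312 in WT 1 to 4. These ranges overlapped, and the log2 fold change was -0.02 ± 0.07 (SE). Fut8 (chr12:77238104-77475996, plus strand) had 4564, 4812, 5188 and 4723 in CD1d-KO 1 to 4 and 3937, 4429, 4759 and 4338 in WT 1 to 4. These ranges overlapped too, and the Fut8 log2 fold change of 0.14 ± 0.07 (SE) was not called. Both genes varied little among replicates, with an SD of 4.35% to 7.75% of the mean in each genotype.

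The transferases of the O-glycan cores overlapped between genotypes. C1galt1 (chr6:7845224-7872042, plus strand) had normalised counts of 1995, 1765, 1794 and 2032 in CD1d-KO 1 to 4 and of 1634, 1908, 2156 and 1871 in WT 1 to 4, and its log2 fold change was 0.00 ± 0.09 (SE). Gcnt3 (chr9:70031496-70038088, minus strand) had 2205, 1485, 2192 and 2273 in CD1d-KO 1 to 4 and 1806, 1988, 2642 and 1610 in WT 1 to 4. CD1d-KO 2 was the lowest and WT 3 the highest for Gcnt3, and the log2 fold change was 0.02 ± 0.16 (SE). Goblet cell markers were likewise lowest in CD1d-KO 2, at a summed 2677 FPKM, and highest in WT 3, at 6125 FPKM, while 0 of 8 were called by DESeq2 and 0 of 8 had an unadjusted p under 0.05.

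The most abundant members, B4galnt2 and St3gal4, also overlapped. B4galnt2 (chr11:95863559-95914871, minus strand) had normalised counts of 31694, 32815, 30048 and 29479 in CD1d-KO 1 to 4 and of 29141, 29597, 30844 and 27195 in WT 1 to 4, with a log2 fold change of 0.09 ± 0.06 (SE). St3gal4 (chr9:35046576-35116864, minus strand) had 21414, 25614, 26859 and 29705 in CD1d-KO 1 to 4 and 27188, 31367, 28696 and 25175 in WT 1 to 4, with a log2 fold change of -0.12 ± 0.10 (SE). CD1d-KO 1 was the lowest sample for St3gal4. St3gal4 shares 672 bases at 100% identity with 4930581F22Rik. Strand was not used in counting, so reads from that stretch cannot be assigned to 1 of these 2 genes. Transcripts of B4galnt2 and C1galt1 share stretches of at least 100 bases at 90% identity or more with 642 and 234 other genes, the longest of 371 and 478 bases, so part of their counts is uncertain. B3galt5 shares 245 bases at 95.1% identity with Ormdl1, and Fut8 shares 297 bases at 100% identity with Gm59821, whereas no such stretch was found for Fut2, Fut4, St6gal1 or Gcnt3.

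Per length, the 9 genes spanned a 580-fold range of mean level over the 8 samples. In fragments counted per kilobase of exon, scaled to the fragments counted in the sample (FPKM), St3gal4 stood at 450 ± 48.5 and B4galnt2 at 257 ± 15.7 (SD, n = 8), and together they made 85.3% to 88.2% of the summed level of the 9 genes in each sample. Fut8 followed at 40.1 ± 2.98, C1galt1 at 31.9 ± 2.68 and Gcnt3 at 16.4 ± 3.03 FPKM, and Fut4 was at 12.9 ± 0.873 FPKM in CD1d-KO and 13.1 ± 0.58 in WT. The ranges of Fut8 and C1galt1 overlapped in WT, as did those of Gcnt3 and Fut4 in both genotypes, although the order held within each of the 8 samples. The genes with the lowest levels were Fut2, St6gal1 and B3galt5, and their order depended on genotype. In WT, Fut2 at 2.61 ± 0.914 FPKM was above B3galt5 at 1.11 ± 0.29 and St6gal1 at 0.953 ± 0.237 (SD, n = 4), with B3galt5 and St6gal1 overlapping. In CD1d-KO, St6gal1 at 1.40 ± 0.383 FPKM overlapped with Fut2 at 1.13 ± 0.505, and B3galt5 was at 0.441 ± 0.0896 (SD, n = 4). St6gal1 exceeded Fut2 in 2 of 4 CD1d-KO samples and in 0 of 4 WT samples, and Fut2 exceeded B3galt5 in 8 of 8 samples. Fut2 and B3galt5 had mean levels at percentiles 31.2 and 23.8 of the tested genes, and St3gal4 and B4galnt2 at 99.1 and 98.5.

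**Figure D3:**
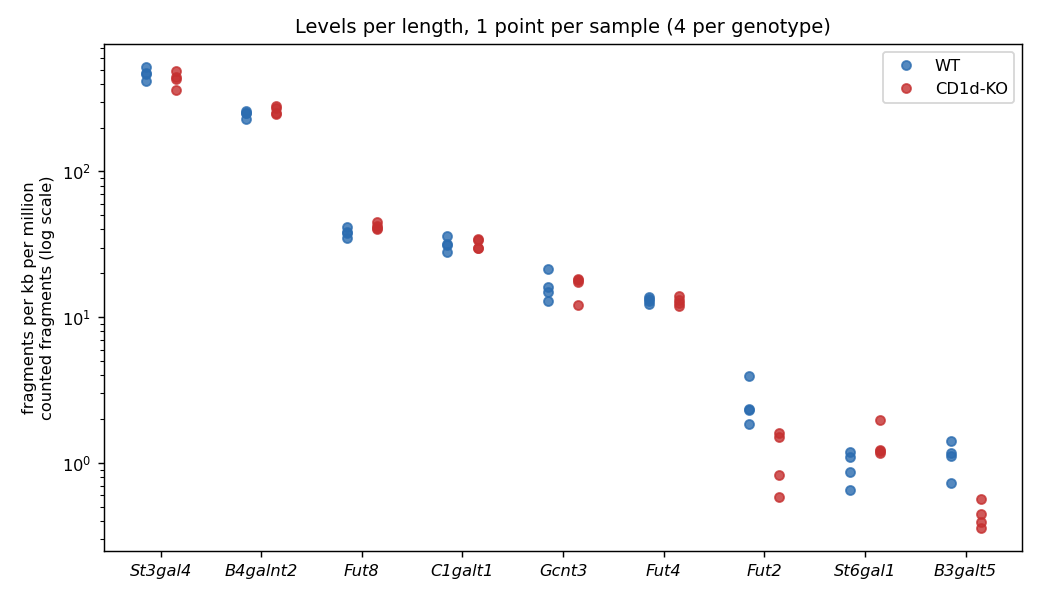
Levels per length in FPKM (y axis, log scale) of the 9 glycosyltransferases, ordered by mean, with 1 point for each WT (blue) and CD1d-KO (red) sample. St3gal4 and B4galnt2 lie at 231 to 520 FPKM, the next 4 genes between 11.9 and 44.8, and Fut2, St6gal1 and B3galt5 at 3.93 or less.

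Fut2, Fut4, B4galnt2, B3galt5, St3gal4, St6gal1 and Gcnt3 were then each set beside related enzymes of the same kind. Of the alpha-1,2-fucosyltransferases Fut1, Fut2 and Sec1, Fut2 made 63.4% to 82.3% of the summed FPKM in CD1d-KO samples and 81.7% to 88.3% in WT samples, and the summed level was 1.47 ± 0.554 against 3.05 ± 0.974 FPKM (SD, n = 4). Fut1 stood at a mean of 0.336 FPKM in CD1d-KO and 0.437 in WT. Among B3galt1, B3galt2, B3galt4 and B3galt5, the share of B3galt5 was 4.7% to 7.03% in CD1d-KO and 8.57% to 16.7% in WT. Most of the rest of that sum came from B3galt4, which acts on gangliosides, at 7.35 FPKM in CD1d-KO and 8.31 in WT. C1galt1 was not part of that sum. Fut4 made at least 98.5% of the levels of Fut4, Fut7 and Fut9, St6gal1 at least 97.1% of those of St6gal1 and St6gal2, and St3gal4 at least 92.0% of those of the 6 alpha-2,3-sialyltransferases in every sample. B4galnt2 made 68.8% to 72.5% of its family, with most of the rest from B4galnt1. Gcnt3 was not the leading core 2 enzyme at the RNA level: Gcnt4 made 51.7% to 68.2% of Gcnt1, Gcnt3 and Gcnt4 in the 8 samples, and Gcnt3 31.5% to 46.8%.

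Beyond the 9 genes, 94 further genes of glycosylation in 6 lists were tested, and 3 of them were called, all lower in CD1d-KO (3.19%, against 4.03% of all tested genes). Of the 94, 47 had positive and 47 negative log2 fold changes, with a median of -0.00, and the median over all tested genes was 0.00. An unadjusted DESeq2 p under 0.05 was found for 15 of the 94 (16.0%), against 2357 of all 15446 tested genes (15.3%). The lists were hand-written with results of these data known. In the list of mucin O-glycan initiation and core enzymes 1 of 18 was called. This was Gcnt1, a core 2 enzyme, with normalised counts of 35.8, 17.1, 41.1 and 52.8 in CD1d-KO 1 to 4 and of 74.6, 78.6, 93.1 and 50.1 in WT 1 to 4. CD1d-KO 4 was above WT 4, and the fitted change of Gcnt1 was -1.02 ± 0.32 on the log2 scale (SE), with a DESeq2 adjusted p of 0.0398. With the stomach marker level as a covariate the log2 fold change of Gcnt1 was -0.40 (adjusted p = 0.924), and without CD1d-KO 1 and 2 it was -0.66 (adjusted p = 0.446), both with DESeq2.

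In the list of chain extension and terminal sugars 2 of 23 were called. Gbgt1, the Forssman glycolipid synthase gene, had normalised counts of 112, 84.8, 94.8 and 107.5 in CD1d-KO 1 to 4 and of 164, 175, 222 and 185 in WT 1 to 4. All CD1d-KO samples were below all WT samples for Gbgt1, at a log2 ratio of -0.90 ± 0.16 (SE) and an adjusted p of 6.21e-06 by DESeq2. With the stomach marker level as a covariate the log2 fold change of Gbgt1 was -0.55 (adjusted p = 0.623, DESeq2), and without WT 3 and WT 4 it was -0.76 (adjusted p = 0.0317). B4galnt3, which makes the LacdiNAc unit, had 1026, 987, 886 and 973 in CD1d-KO 1 to 4 and 1237, 1288, 1120 and 1103 in WT 1 to 4. Its groups did not overlap, at a log2 ratio of -0.29 ± 0.08 (SE) and an adjusted p of 0.0150 by DESeq2. B4galnt3 was not called with the stomach covariate (-0.41, DESeq2 adjusted p = 0.339) or without CD1d-KO 1 and 2 (-0.35, adjusted p = 0.0536). Gcnt1 kept its call in 4, B4galnt3 in 8 and Gbgt1 in 14 of the 15 alternative fits.

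DESeq2 called 0 of 15 fucosylation genes, 0 of 20 sialylation genes, 0 of 12 N-glycan branching genes and 0 of 6 sulfation genes, and an unadjusted p under 0.05 was found for 1, 5, 2 and 1 of them (15.3% of all tested genes had one). The edgeR quasi-likelihood test called 1 of the 94 genes. The genes with the highest mean count in each list were not called. Gmds, which makes GDP-fucose, had a log2 fold change of -0.00 ± 0.08, Galnt6, an initiator of mucin O-glycans, 0.04 ± 0.09, and St6galnac2, a sialyltransferase of O-glycans, 0.10 ± 0.07 (SE). B4galnt1, the GM2/GD2 synthase, had 0.01 ± 0.05, Mgat4a, an N-glycan branching enzyme, 0.10 ± 0.08, and Gal3st1, the sulfatide synthase, -0.01 ± 0.10 (SE). The largest negative values among uncalled genes came with wide errors, as the plot of the glycosylation lists shows.

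**Figure D4:**
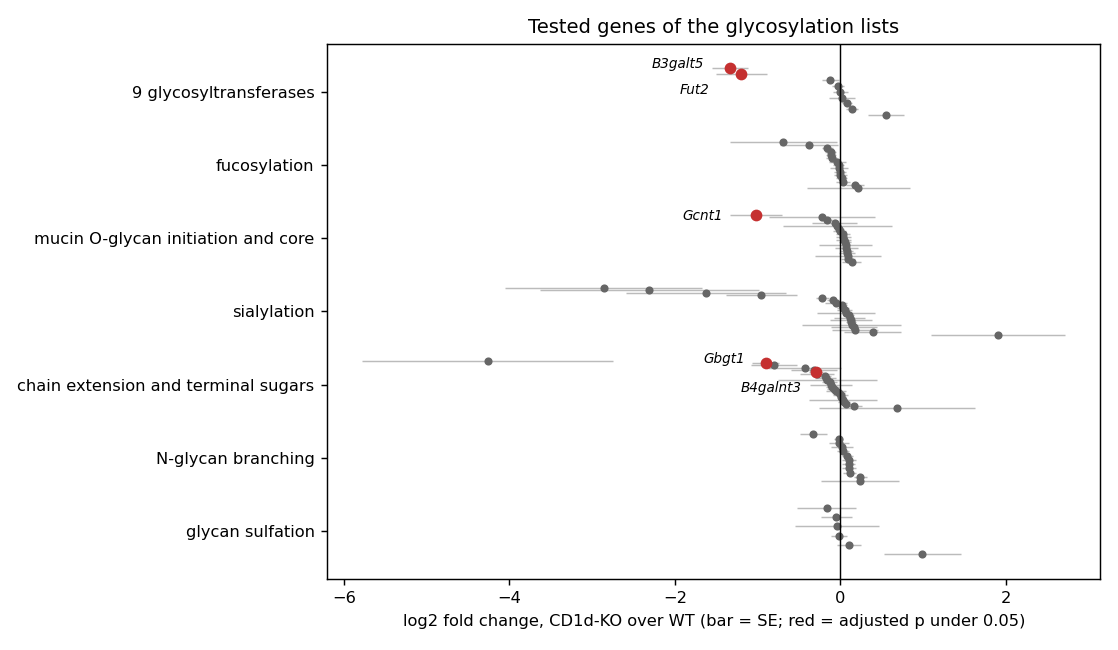
Log2 fold change, CD1d-KO over WT (x axis), of every tested gene of the 9 glycosyltransferases and of the 6 glycosylation lists (rows), with grey bars for the SE and red points, with names, for an adjusted p under 0.05. Most points sit close to 0, and B3galt5, Fut2, Gcnt1, Gbgt1 and B4galnt3 are the 5 red ones, all to the left.

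The proteins that carry these sugars were described alongside, as was a list of genes of IL-22 and STAT3 signalling. That list holds the receptor genes Il22ra1 and Il10rb beside genes known to respond to IL-22 through STAT3. Both lists were chosen with earlier results of these data known, so nothing is read from their shares of called genes. Of the 9 mucin carriers tested 2 were called, both lower in CD1d-KO, against 2.38% of all tested genes called lower, and the median log2 fold change of the 9 was -0.27. Muc13, a membrane mucin of enterocytes, stood at a log2 ratio of -0.40 ± 0.06 (SE) with an adjusted p of 8.44e-09 by DESeq2, and at -0.42 with an adjusted p of 0.0689 once the stomach marker level was a covariate. Muc1, another membrane mucin, was counted 3, 6, 3 and 15 times in CD1d-KO 1 to 4 and 54, 29, 130 and 45 times in WT 1 to 4, a log2 ratio of -3.37 ± 0.55 (SE) with an adjusted p of 2.42e-07 by DESeq2. It was highest in WT 3, and with the stomach marker level as a covariate its log2 fold change was -1.15 (DESeq2 adjusted p = 0.688). Muc2, the secreted mucin of goblet cells, had -0.11 ± 0.16 and was not called.

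Of the 11 tested genes of the IL-22 and STAT3 list 7 were called lower, where 2.38% of all tested genes were. The list was chosen with earlier results known, so nothing is read from that share either. The median log2 fold change of the 11 was -0.72. The 6 of smallest adjusted p were, in order, Bcl3, a regulator of NF-kB, at -0.53 ± 0.08, Socs3 at -1.10 ± 0.18, Reg3g at -1.25 ± 0.25, Saa1, an acute-phase protein, at -4.77 ± 0.98, Stat3 itself at -0.36 ± 0.08 and the antimicrobial lectin Reg3b at -1.45 ± 0.34 (log2 fold change, SE). Their DESeq2 adjusted p-values were 3.10e-09, 6.44e-07, 7.25e-05, 0.000138, 0.000304 and 0.00177. Saa1 rested on raw counts of 4, 0, 4 and 4 in CD1d-KO 1 to 4 and of 76, 64, 162 and 8 in WT 1 to 4. Bcl3 kept its call in all 15 alternative fits. Without CD1d-KO 1 and 2, Socs3, Reg3g, Stat3 and Reg3b were not called, at DESeq2 adjusted p-values of 0.0902, 0.0547, 0.0830 and 0.129. With the stomach marker level as a covariate, Reg3g, Saa1, Stat3 and Reg3b were not called, at DESeq2 adjusted p-values of 0.290, 0.545, 0.560 and 0.471.

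The genes whose profile over the 8 samples was most like that of the members that differed most were sought among the 11711 genes whose normalised count averaged 50 or more, by the root-mean-square difference of centred log2 values. For B3galt5 they were Duox2, an oxidase of the epithelial surface, at 0.223, Reg3g, an antimicrobial lectin, at 0.25, and Socs3, a feedback inhibitor of STAT3 signalling, at 0.269 log2 units. For Fut2 they were Gcnt1 at 0.255, the protease Prss27 at 0.262 and the interferon-induced Oas2 at 0.275. For St6gal1 they were Ccdc92b at 0.161, Golga7b at 0.177 and the Paneth cell defensin Defa22 at 0.183. These distances describe 8 samples that share the genotype contrast by which the members were picked. Duox2, Reg3g and Socs3 had log2 fold changes of -1.20, -1.25 and -1.10, and Prss27 and Oas2 of -1.44 and -0.93. Those of Ccdc92b, Golga7b and Defa22 were 0.40, 0.66 and 0.73. Since these genes were picked by likeness over the same samples, their directions follow from the choice.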

How the data were processed

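Poly(A) RNA-seq was made from the sorted IECs of 4 mice per genotype, and samples were grouped by the labels. The authors deposited raw fragment counts per gene, which per the file headers came from featureCounts 1.6.4 run on pairs against an mm10 gene annotation, exon by exon, without use of strand and with primary alignments. The study's methods name HISAT2 and GRCm39, and the coordinates given here are those of the table (mm10). Labels do not say which samples shared an experiment, so p-values measure the spread between mice with any batch included.

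The 9 genes and all lists were chosen with earlier results of these data known. DESeq2 1.42.0 (R 4.3.3) was fitted to all 25239 genes with genotype as the only term and median-of-ratios size factors, following the tool in the study's methods. Of 19088 genes with a count, 3642 received no adjusted p, 4 of them by Cook's rule and the rest by a mean count filter at 2.41. Depth was 23610266 to 31629435 counts, and counting errors cover counting only. FPKM was computed from the counts with the table's exon lengths. No sample column was left unused. Replicates differed by more than sampling noise (chi-square per degree of freedom 9.76 to 37.2).

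Alternatives were edgeR 4.0.16 (quasi-likelihood), TMM factors, a filter of 10 counts in at least 4 samples, a replicate block, each sample left out, the samples with Y-linked counts left out, and a stomach marker score (mean centred log2 of normalised count + 1) as a covariate. Leaving out WT 3 and WT 4 was added after seeing the data. Transcripts were compared with blastn 2.17.0 (90% identity over 100 bases) and promoter windows came from RefSeq (GRCm38.p6). Named genes were Cd1d1, the 9 genes, up to 6 called genes of smallest adjusted p per list, the most abundant gene of each glycosylation list, the 3 most like genes per member that differed most, and markers beside a result they move with.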

Additional observations from a re-analysis of the deposited data

Results flagged for a closer look

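Among the 9 genes in each genotype, 18 groups of 4 samples, 2 held a sample far from its group by Dixon's criterion at the 95% level, which chance alone meets in about 1 in 20 groups. St6gal1 was at a normalised count of 270 in CD1d-KO 1, where the nearest CD1d-KO sample had 174, a gap of 0.918 of the range, and its log2 fold change was 0.55 with and 0.35 without that sample. Gcnt3 was at 1485 in CD1d-KO 2, where the nearest had 2192, a gap of 0.896 of the range, and its log2 fold change was 0.02 with and 0.14 without that sample.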

How the results depend on the processing

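Of the 15 alternatives, the count of members called (2) was 1 with edgeR, 1 when the Y-positive samples were dropped (CD1d-KO 1 and 2, with Y-linked counts), 1 without WT 3 and WT 4, 0 once the stomach score entered as a covariate, and 1 to 2 when single samples were left out (1 without CD1d-KO 1, WT 1 or WT 3). The count over the 6 glycosylation lists (3) was 1 with edgeR, 1 without the Y-positive samples and 0 with the stomach score. It was 1 to 5 when single samples were left out (1 without CD1d-KO 2 or WT 2, 5 without WT 4). The genes called also changed. Of 3 called without CD1d-KO 3, 1 was higher in CD1d-KO and 1 was among the 3 called from all 8 samples. Without WT 3, and without WT 3 and WT 4, 1 of 3 was higher and 2 were among those 3. Without WT 1, 1 of 2 was among them. All calls (622) came to 299 with edgeR, 372 without the Y-positive samples, 105 with the stomach score, 331 without WT 3 and WT 4 and 323 to 646 with single samples left out (323 without CD1d-KO 2, 385 without WT 2, 406 without WT 1). Among mucin carriers and the IL-22 and STAT3 list the count of calls (9) was 5 without the Y-positive samples, 4 of them among the 9. With the stomach score it was 3, 2 of them among the 9. The fits without single samples rest on fewer samples. With the stomach score, which did not overlap between genotypes, the SE was 0.48 for Fut2 and 0.43 for B3galt5, against 0.31 and 0.22 without it. The cause of the changed counts was not tested. B3galt5 stayed negative throughout and missed the threshold with the stomach score only, and Fut2 stayed negative throughout.

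The log2 fold changes of 4 uncalled genes near 0 changed sign. St3gal4 (-0.12) was at 0.0102 when the Y-positive samples were dropped and at 0.0636 with the stomach score. With single samples left out, Fut4 ranged from -0.0554 to 0.0133, C1galt1 from -0.0628 to 0.0719 and Gcnt3 from -0.0745 to 0.178. With the stomach score, C1galt1 (0.00) was at 0.28 and Gcnt3 (0.02) at 0.42, neither called. Deviations from the group mean correlated at 0.285, 0.0245, 0.224 and 0.00494 between the samples that share numbers 1 to 4. Samples of different number were not compared, so whether the numbers pair samples cannot be told. A replicate block gave 2 members, 2 of the wider list and 569 genes called, with Fut2 at -1.25 and B3galt5 at -1.31. Depth limits Fut2 and B3galt5 most, at raw counts of 54 and 67 in their lowest samples.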
